A study of Homo sapiens with 16 samples.

Results

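The genes described were the protein-coding genes of chromosome 19 whose symbol is ZNF followed by digits alone. In the GENCODE annotation on hg19 there were 240 such genes, of 1480 protein-coding genes on that chromosome and 20163 in the genome. Most genes named this way encode C2H2 zinc finger proteins, and many of those on chromosome 19 carry a KRAB domain, which recruits the co-repressor TRIM28 and with it the H3K9 methyltransferase SETDB1. They arose by tandem duplication and lie in arrays, and many are best known for silencing retrotransposons in stem cells and somatic tissues. H3K4me1 is a mark of enhancers and of the flanks of active starts, and H3K27me3 is the mark that Polycomb complexes deposit and that KDM6B removes. Symbols with a letter suffix and readthrough genes were left out, which brought the count from 249 to 240.

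CUT&Tag for both marks had been done in BE2C cells, a human neuroblastoma line with amplified MYCN, so all groups shared that genotype. In the knockdown experiment, cells transfected with siKDM6B33, a single siRNA against KDM6B, were compared with cells given the control siRNA siCtrl at 72 h. In the compound experiment, cells given GSK-J4, an inhibitor of KDM6 demethylases, at 2.5 µM for 72 h were compared with cells given 0.1% DMSO. Each of the 8 groups held 2 libraries, described by the study as biological replicates, and broad regions, here called islands, and narrow peaks had been called in each of the 16 libraries. The start of a gene was taken as that of its canonical transcript (237 of the 240 genes had one), and the start window as 1 kb on each side. A start window was scored by the percent of its bases that islands covered, and a gene body by the percent from its annotated start to its end. A gene was counted as higher or lower after treatment when both treated libraries lay above, or below, both controls, and with 2 libraries against 2 the exact two-sided permutation test cannot give a p under 0.33. Rose and fell are used of values whose groups did not overlap. Counts of ZNF genes called higher or lower by the non-overlap rule are set beside the same share over all 20163 genes. That share was not computed for counts over all 8 libraries of a mark. Nor was it computed at the gene 5′ end, with a replicate block or with a library left out. Whether a mark was gained in more cells or at a higher level in each cell cannot be told apart in these bulk samples.

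The libraries differed in depth, which was estimated as the genome background of each narrow peak list in tags over a base. For H3K4me1 it was 0.0849 and 0.0902 in siCtrl and 0.105 and 0.107 in siKDM6B33, and it was 0.0483 to 0.0569 in the compound experiment. The H3K4me1 islands covered 98.6 and 103 Mb of the genome in siCtrl and 114 and 115 Mb in siKDM6B33. The first GSK-J4 library for H3K27me3 stood apart from its replicate, with 16676 islands against 8006. No pair of replicates held identical lists. Of the genes checked as marks of adrenergic neuroblastoma, MYCN, amplified in this line, had its start window fully covered by islands in all 16 libraries of either mark, GATA3 was covered in both siCtrl libraries, and HAND2 was at 0 in both siCtrl libraries and at 100% after knockdown.

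To show what these starts look like, the 250 bases upstream of 5 of them are printed 5′ to 3′ on the strand of the gene, from GRCh37, with every CpG in capitals. ZNF439 (chr19:11959291-11959540, plus strand) and ZNF579 (chr19:56092215-56092464, minus strand) are shown because their H3K4me1 coverage rose from 0 after knockdown. ZNF154 (chr19:58220573-58220822, minus) and ZNF671 (chr19:58238993-58239242, minus), genes known for promoter methylation in tumours, had an H3K4me1 island at their start in none of the 8 libraries. ZNF536 (chr19:30863041-30863290, plus), a neural zinc finger gene without a KRAB domain, was the gene with lower start coverage after knockdown. Its canonical start lies inside the longer gene record. The stretches held 10, 10, 11, 9 and 4 CpGs in the order given.
ZNF439: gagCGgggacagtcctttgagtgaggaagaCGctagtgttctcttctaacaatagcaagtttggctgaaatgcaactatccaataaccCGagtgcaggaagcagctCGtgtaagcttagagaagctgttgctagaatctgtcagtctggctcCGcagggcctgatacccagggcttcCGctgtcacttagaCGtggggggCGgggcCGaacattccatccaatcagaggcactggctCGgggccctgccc
ZNF579: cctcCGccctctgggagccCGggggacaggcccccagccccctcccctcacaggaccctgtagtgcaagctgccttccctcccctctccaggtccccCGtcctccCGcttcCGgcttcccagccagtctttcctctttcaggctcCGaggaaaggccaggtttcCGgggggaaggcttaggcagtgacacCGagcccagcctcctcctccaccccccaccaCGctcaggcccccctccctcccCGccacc
ZNF154: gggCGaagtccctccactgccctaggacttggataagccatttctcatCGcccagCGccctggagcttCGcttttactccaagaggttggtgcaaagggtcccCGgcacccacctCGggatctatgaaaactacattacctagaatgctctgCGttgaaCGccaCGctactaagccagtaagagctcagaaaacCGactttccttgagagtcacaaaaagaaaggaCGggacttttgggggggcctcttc
ZNF671: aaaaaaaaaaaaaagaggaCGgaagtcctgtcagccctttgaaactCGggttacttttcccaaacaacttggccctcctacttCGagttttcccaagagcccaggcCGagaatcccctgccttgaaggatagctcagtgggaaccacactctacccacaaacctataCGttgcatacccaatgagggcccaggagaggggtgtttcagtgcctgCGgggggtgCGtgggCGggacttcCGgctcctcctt
ZNF536: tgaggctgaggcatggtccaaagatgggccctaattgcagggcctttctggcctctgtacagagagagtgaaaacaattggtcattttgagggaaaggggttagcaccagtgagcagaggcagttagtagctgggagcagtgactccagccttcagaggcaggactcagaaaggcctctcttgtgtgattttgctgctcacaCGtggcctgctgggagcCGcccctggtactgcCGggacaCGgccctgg

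H3K4me1 islands were scarce at ZNF gene starts in control cells and common after KDM6B knockdown. An island touched the start window of 24 (10.0%) and 26 (10.8%) of the 240 genes in the siCtrl libraries, and of 135 (56.2%) and 137 (57.1%) in the siKDM6B33 libraries. The mean share rose from 10.4% ± 0.589 (SD, n = 2) to 56.7% ± 0.589 (n = 2), a ratio of 5.44, and the groups did not overlap. Over all protein-coding genes the share went from 24.5% to 57.5%, and over the other 1231 genes of chromosome 19 from 36.6% to 56.9%. By islands in the lists as deposited, the ZNF genes thus stood below both sets in siCtrl and beside them in siKDM6B33. The 236 ZNF genes of other chromosomes had 21.2% in siCtrl and 65.9% in siKDM6B33, a control level nearer to that of all genes.

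**Figure D1:**
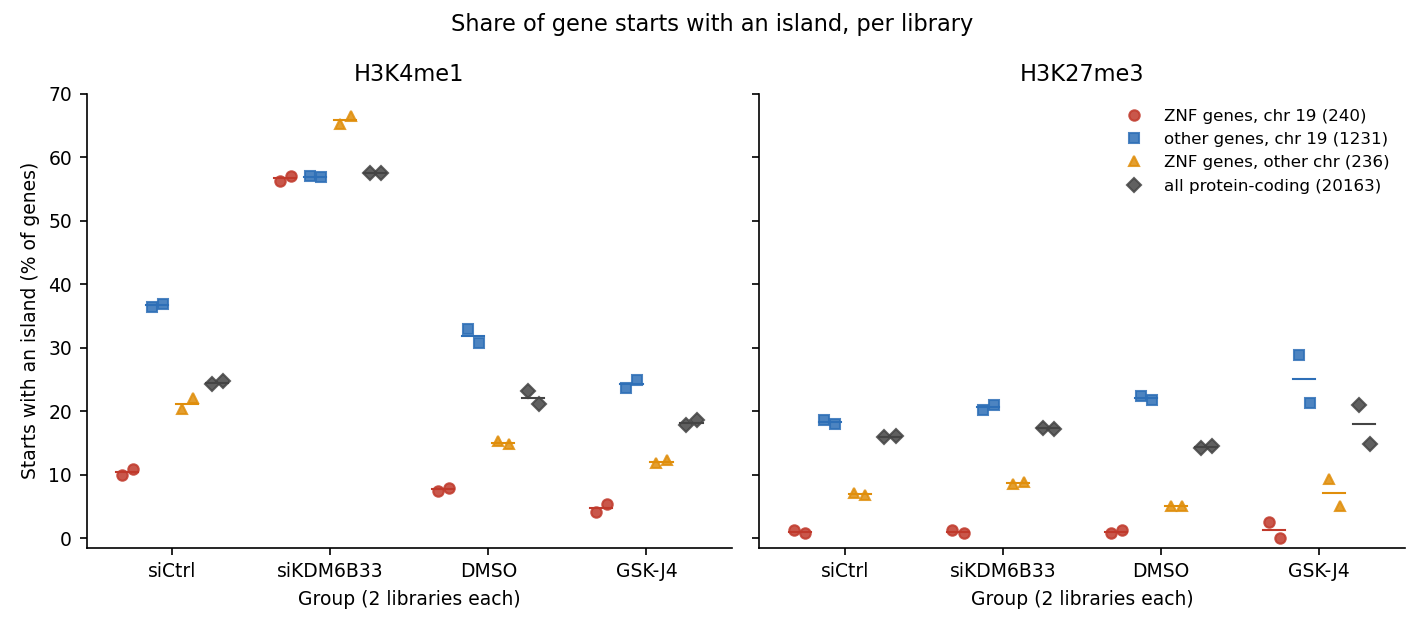
Share of gene starts (percent of genes) with an island within 1 kb, for H3K4me1 and H3K27me3, in the 4 groups of each mark. Each point is 1 library, short lines are means of 2 libraries, and colours mark the gene set. The red circles of the chromosome 19 ZNF genes lie at 10.0% and 10.8% in siCtrl and at 56.2% and 57.1% in siKDM6B33 for H3K4me1, and at 2.5% or below in every H3K27me3 library.

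Counted gene by gene, start coverage was higher after knockdown at 108 ZNF genes (45.0%), against 38.4% of all protein-coding genes, and lower at 1 ZNF gene, against 1.23%. Among ZNF genes of other chromosomes 48.7% were higher and 0.847% lower. Of the 108, 101 had no island in either siCtrl library and an island in both siKDM6B33 libraries (42.1% of the ZNF genes, against 30.3% of all genes). That pattern was found at 40.3% of ZNF genes of other chromosomes. The difference in start coverage had a median of 80.5 percentage points among the 108 and ranged from 0.65 to 100. The siKDM6B33 replicates differed at these genes by a median of 9.67 percentage points, about 1 window of 200 bp of the island caller, and by at most 39.98. The siKDM6B33 lists were longer than the siCtrl lists, and when all 4 were trimmed to 98.6 Mb, keeping the islands of highest score, 69 ZNF genes (28.8%) were higher against 31.7% of all genes, and 0 were lower. At equal length the share of ZNF starts with an island was 9.58% and 10.8% in siCtrl and 37.9% and 40% in siKDM6B33, while over all genes it was 22.3% and 24.7%, then 50.1% in both. The islands at the 101 gained starts were short, with a median width of 2.2 kb in each siKDM6B33 library against 3.2 kb at all gained starts of the genome. The part of island width in the values at equal length was not tested.

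The gain sat on the start itself. In siKDM6B33 the mean H3K4me1 coverage of the ZNF genes peaked at 55.7% and 57.1% in the 200-bp bins beside the start. It fell to 6.12% and 4.95% at 2.1 kb upstream and to 17.5% and 18.8% at the same distance downstream. At 4.9 kb downstream it was 2.5% and 2.92%, close to the 1.67% and 1.25% of siCtrl. The zone with at least 50% of the top coverage was 2.4 kb wide in both siKDM6B33 libraries. For the other genes of chromosome 19 that zone was 5.0 and 4.8 kb wide, around tops of 55.5% in both libraries.

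**Figure D2:**
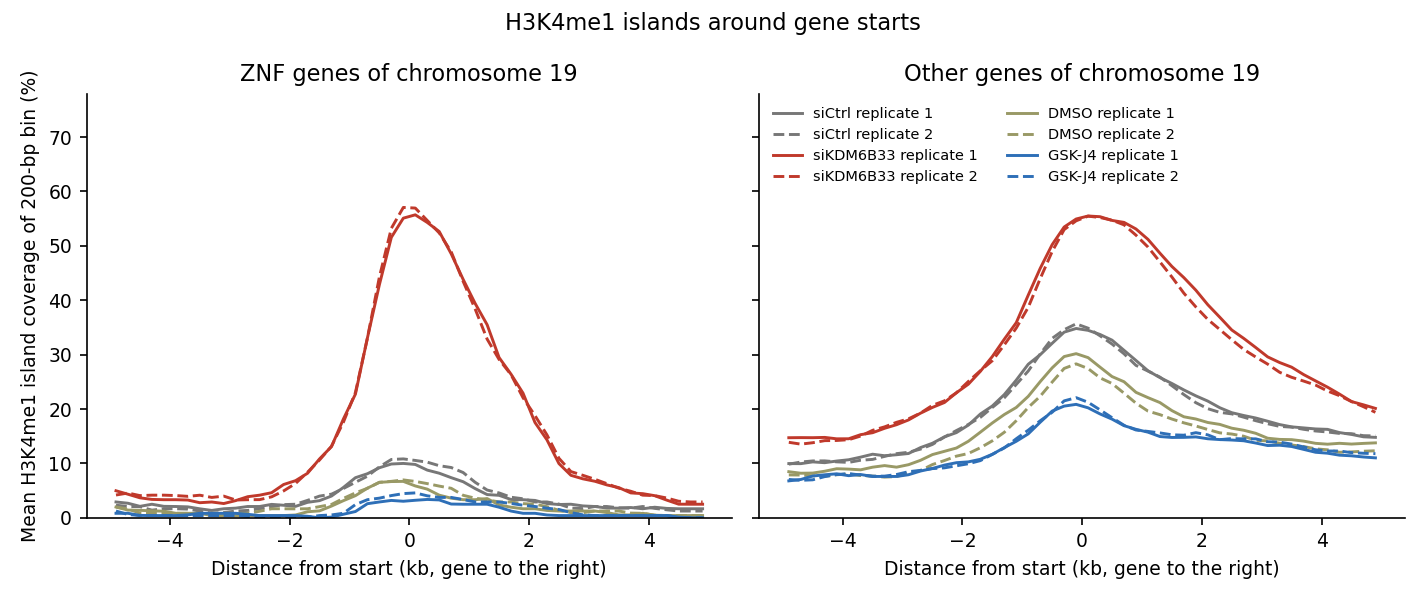
Mean percent of each 200-bp bin covered by H3K4me1 islands, against distance from the gene start in kb with the gene to the right, for the 240 ZNF genes and the 1231 other genes of chromosome 19. Each line is 1 library. The red siKDM6B33 lines of the ZNF genes rise to 55.7% and 57.1% at the start and are near the other lines by 4.9 kb on either side, while those of the other genes stay at 13.5% or above over the whole span.

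At 5 genes start coverage was 0 in both siCtrl libraries and 100% in both siKDM6B33 libraries, a pattern not counted over all genes. These were ZNF181, ZNF439, ZNF584, ZNF667 and ZNF700 (exact permutation p = 0.33 each, the smallest that 2 against 2 libraries allow), and all 5 were at 0 in the 4 compound-experiment libraries. ZNF439 and ZNF700 lie in the array from ZNF653 to ZNF791, and the other 3 lie in different arrays. Their narrow peaks were not all absent in siCtrl: ZNF700 had 2 and 1 peaks centred in its start window there and 3 and 3 in siKDM6B33. ZNF181 had 2 and 2, then 5 and 4, whereas ZNF439 had 0 and 0, then 2 and 5.

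Among 6 ZNF genes whose proteins bind retrotransposons, 4 were higher after knockdown and 2 had no island in any library, beside 38.4% of all genes higher. ZNF91, which represses SVA elements, went from 0 and 0 in siCtrl to 76.4% and 66.4% of the start window in siKDM6B33. ZNF93, which represses LINE-1 elements, went from 0 and 0 to 97.7% and 77.7%. ZNF417 and ZNF587, a close pair of paralogs that bind endogenous retroviruses, went from 0 to 72.0% in both libraries and from 0 to 81.3% and 71.3%. Narrow peaks at the pair were present in siCtrl already, with 2 and 1 at ZNF417 and 3 and 1 at ZNF587, against 3 and 3 and 2 and 1 in siKDM6B33. Of the 50-base words of their start windows, 75.1% and 80.9% were unique in the genome. ZNF611 and ZNF649 had no island in any of the 8 H3K4me1 libraries, while ZNF611 had 1 and 0 narrow peaks centred in its start window in siCtrl and 3 and 2 in siKDM6B33.

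Among 6 genes known for promoter methylation in tumours, 1 was higher after knockdown, beside 38.4% of all genes, and this was ZNF331 at 99.9% and 89.9% from 0. ZNF135, ZNF154, ZNF582, ZNF671 and ZNF677 had no H3K4me1 island at their start in any of the 8 libraries, and DNA methylation was not measured in these data. ZNF671 nevertheless had 2 narrow H3K4me1 peaks at its start in each siKDM6B33 library and 0 in each siCtrl library, whereas ZNF582 had 1 in each siCtrl library and 0 in each siKDM6B33 library. Of the other genes fixed for naming, ZNF473, which takes part in histone pre-mRNA processing, went from 0 to 86.9% and 100% by islands, with 2 and 2 narrow peaks in siCtrl and 2 and 1 in siKDM6B33. ZNF43 went from 0 to 63.7% in both libraries, and ZNF146, which has fingers but no KRAB domain, from 0 to 59.6% in both, with 2 and 1 narrow peaks in siCtrl and the same in siKDM6B33. ZNF274, which recruits SETDB1 to the ends of other ZNF genes, was at 0 in both siCtrl libraries and at 0 and 98.6% in siKDM6B33, so its groups overlapped. ZNF208 and ZNF541 were at 0 throughout.

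The ZNF genes fell into 4 patterns of H3K4me1 in the knockdown experiment. The 101 gained genes made up the largest, 93 genes (38.8%) had no start island in any library, 23 had one in all 4 libraries, and 23 had other patterns. Having no island in the 4 libraries was as common among all genes (39.8%), but an island in all 4 was found at 21.0% of all genes and at 9.58% of ZNF genes. A start island in all 8 H3K4me1 libraries was found at 8 ZNF genes (3.33%), named here after their values were seen: ZNF296, ZNF414, ZNF446, ZNF491, ZNF574, ZNF575, ZNF628 and ZNF787. The share of all genes with an island in all 8 was not computed. ZNF296, a transcription factor gene without a KRAB domain, had 100% of its window covered in all 4 knockdown-experiment libraries and both DMSO libraries, and 100% and 33.2% in GSK-J4. ZNF536 went the other way from the rest, with 100% and 74.5% in siCtrl, 0 and 0 in siKDM6B33, and 0 in all 4 libraries of the compound experiment. At equal covered length its siCtrl values were 0 and 74.5%, so the groups were no longer apart, and no narrow peak was centred in its start window in any of the 16 libraries.

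**Figure D3:**
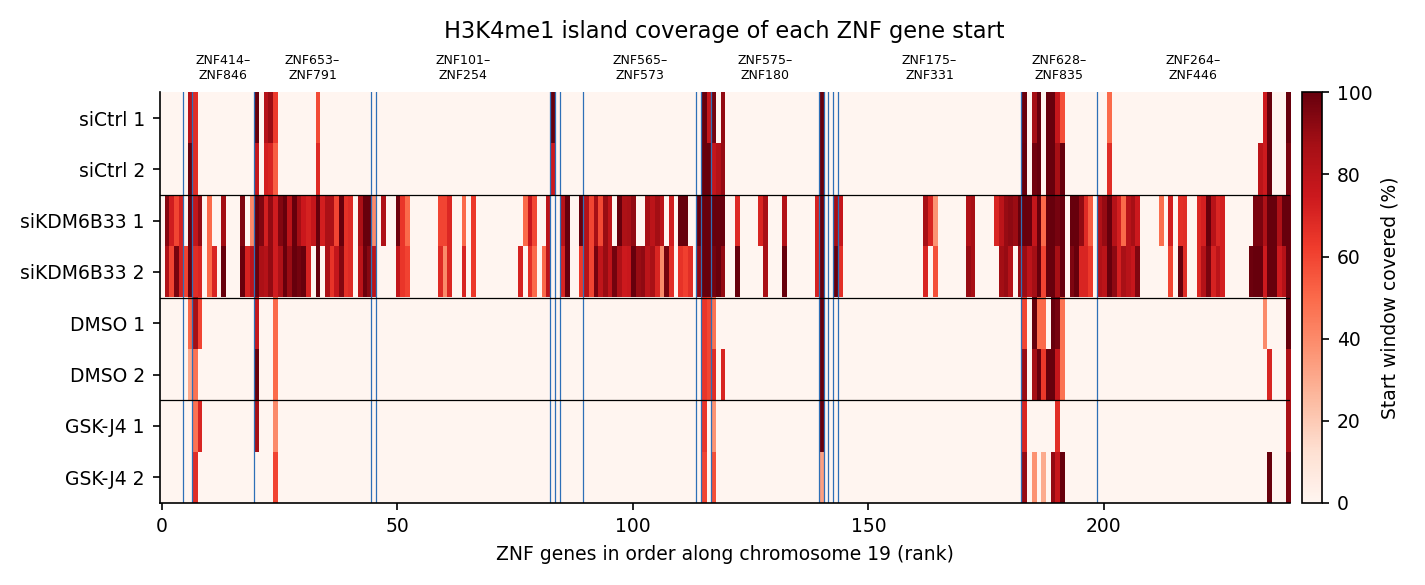
H3K4me1 island coverage of the start window (percent, colour) of each of the 240 ZNF genes, ordered along chromosome 19 by rank, in 8 libraries. Blue lines part the position clusters, named above by their first and last gene where they hold 10 genes or more. The siKDM6B33 rows fill in the blocks from ZNF653 to ZNF791 and from ZNF565 to ZNF573. The blocks from ZNF101 to ZNF254, from ZNF575 to ZNF180 and from ZNF175 to ZNF331 stay mostly empty.

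The gain was uneven between the arrays. Joining ZNF genes within 500 kb of each other gave 20 position clusters, of which 8 held at least 10 genes. In the cluster from ZNF653 to ZNF791 (chr19:11594242-12750912, 25 genes) 20 genes (80.0%) were higher after knockdown, and in that from ZNF565 to ZNF573 (chr19:36673178-38307940, 24 genes) 17 were (70.8%). In the latter, no start had an H3K4me1 island in either siCtrl library, and 70.8% and 91.7% had one in siKDM6B33. The start windows of 10 ZNF genes overlapped that of another ZNF gene, and of 35 that of another protein-coding gene. The same island can then count for both genes. The ZNF pairs here were ZNF565 with ZNF146, ZNF829 with ZNF568, ZNF569 with ZNF570 and ZNF540 with ZNF571. ZNF490 with ZNF791 lay in the cluster from ZNF653 to ZNF791. The cluster from ZNF264 to ZNF446 near the chromosome end had 23 of 41 genes higher (56.1%). The shares were 50.0% of 16 genes from ZNF628 to ZNF835 and 38.5% of 13 from ZNF414 to ZNF846.

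The other 3 large clusters had lower shares. From ZNF101 to ZNF254 (chr19:19779605-24312770, 37 genes), the array beside the centromere that includes ZNF43, ZNF91, ZNF93 and ZNF208, 11 genes were higher (29.7%) and 22 had no island in any library. From ZNF175 to ZNF331 (39 genes) 9 were higher (23.1%), and from ZNF575 to ZNF180 (23 genes) 5 were (21.7%). At equal covered length the highest share was again that of the ZNF653 to ZNF791 cluster, at 64.0%, followed by 41.7% from ZNF565 to ZNF573, and the lowest was 7.69% from ZNF414 to ZNF846. These shares are a description: genes of a cluster share their neighbourhood and sequence, and no test between clusters was run.

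**Figure D4:**
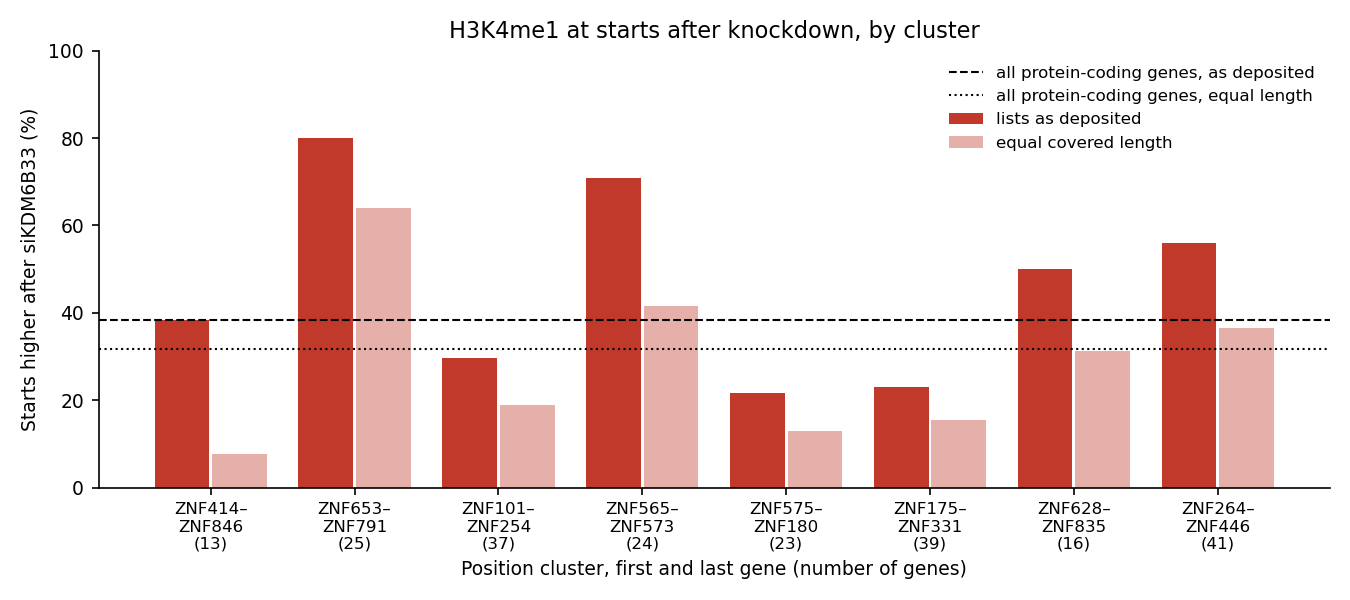
Share of genes (percent) in each cluster of at least 10 ZNF genes whose H3K4me1 start coverage was higher in both siKDM6B33 libraries than in both siCtrl libraries, with the lists as deposited (dark bars) and at equal covered length (light bars). The dashed and dotted lines are the same shares over all protein-coding genes, 38.4% and 31.7%. Bars run from 80.0% (ZNF653 to ZNF791) down to 21.7% (ZNF575 to ZNF180) with the lists as deposited.

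The 50-base words of the start windows were mostly unique in the genome, which matters because only uniquely mapped fragments had been kept. A median of 98.2% of the words of a ZNF start window occurred once, with 66.5% at the lowest gene and 28 genes under 90%. The median was 94.9% from ZNF101 to ZNF254, 96.8% from ZNF175 to ZNF331 and 99.7% from ZNF575 to ZNF180, the 3 clusters with the lowest shares of gain in the lists as deposited. It was 96.2% from ZNF653 to ZNF791, the large cluster with the highest share, and 98.6% from ZNF414 to ZNF846, the lowest at equal covered length. It was 98.7% for gained genes and 96.6% for genes with no island. The part of word uniqueness in the island patterns was not tested.

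The clusters also differed in the letters of their upstream stretches. The ETS core CCGGAAG, searched on both strands in the 250 bases before each start, was found at 71 ZNF genes (29.6%), against 11.8% of all protein-coding genes, 13.1% of the other genes of chromosome 19 and 27.97% of ZNF genes on other chromosomes. In the cluster from ZNF101 to ZNF254 it was found at 22 of 37 genes (59.5%), each time within 60 bases of the start. The last 60 bases before 6 of these starts are printed, from GRCh37 on the strand of the gene, to show how alike the duplicated promoters are. Capitals mark the match, here on the opposite strand. ZNF91 gained an H3K4me1 island at its start with knockdown, ZNF724 had another pattern, and ZNF100, ZNF492, ZNF681 and ZNF728 had no start island in any library.
ZNF91: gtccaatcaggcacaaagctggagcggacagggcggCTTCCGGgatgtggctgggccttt
ZNF100: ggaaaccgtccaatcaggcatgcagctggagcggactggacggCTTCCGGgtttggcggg
ZNF492: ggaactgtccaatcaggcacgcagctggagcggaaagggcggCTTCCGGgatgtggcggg
ZNF681: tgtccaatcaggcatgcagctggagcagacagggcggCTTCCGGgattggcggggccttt
ZNF724: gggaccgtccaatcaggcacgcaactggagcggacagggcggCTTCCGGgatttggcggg
ZNF728: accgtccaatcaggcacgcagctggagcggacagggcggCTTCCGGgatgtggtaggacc
Of the 22 genes with the match in that cluster, 3 gained an island with knockdown, 16 had none in any library and 3 had other patterns. Across the chromosome, that cluster included, the core was found at 24.8% of the gained ZNF genes and at 35.5% of those with no island. That cluster held 22 of the 93 ZNF genes with no island and 11 of the 101 gained. The shares without it were not computed, so the order may rest on its duplicated promoters. Among all genes the order was the reverse, with 20.2% of gained starts and 6.29% of starts without an island. The SP1 core GGGCGGGG was found at 66.7% of the genes from ZNF175 to ZNF331 and at 0% from ZNF565 to ZNF573, against 35.4% of all ZNF genes here and 32.9% of all genes. The E-box CACGTG was found at 2.92% of ZNF genes and 7.86% of all genes and the E2F letters TTTGGCGC at 3.33% and 0.724%. The E2F letters were found at 0.424% of ZNF genes on other chromosomes. Among the large clusters their share ran from 0% to 10.8%, with the highest in the duplicated promoters from ZNF101 to ZNF254. Matches are a description of these windows and not binding sites.

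ZNF gene starts without a called H3K4me1 island had CpG ratios like those of gained starts. The observed over expected CpG ratio of the start window had a median of 0.595 over the ZNF genes and 0.635 over all genes. It was 0.594 at the 101 gained ZNF starts and 0.59 at the 93 with no island in any library, whereas over all genes it was 0.71 at gained starts and 0.332 at starts with no island. Within the range from 0.5 to 0.6, the range with the most ZNF genes, 36 of 99 ZNF genes (36.4%) gained an island, against 34.4% of 2403 genes of the genome, and 45.5% against 32.0% had none. From 0.4 to 0.5, 60% of 20 ZNF genes gained an island against 19.9% of all genes, and the order of the shares without an island was the reverse, at 40% against 52.2%. At ratios of 0.7 and above, 35.3% of 34 ZNF genes had no island, against 15.1% of 7322 genes.

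Along the gene bodies H3K4me1 rose as well, mainly in the front part. Islands covered a mean of 2.63% and 2.74% of a ZNF gene body in siCtrl and 9.0% and 9.08% in siKDM6B33, a difference of 6.36 percentage points. Over all genes the difference was close to it in points, at 6.2 from a control mean of 10.1%. Body coverage was higher at 119 ZNF genes (49.6%), against 42.0% of all genes, and lower at 2, against 9.1% of all genes. Among ZNF genes of other chromosomes 54.2% of bodies were higher and 3.81% lower. With the body cut into 10 equal parts, the first part had 6.92% and 7.45% in siCtrl and 35.1% and 34.8% in siKDM6B33. The last part had 1.69% and 1.37% in siCtrl and 3.23% and 4.04% in siKDM6B33. The gene end, where the zinc finger exon usually lies, had an island at 4.17% and 3.75% of ZNF genes in siCtrl and at 7.08% and 6.67% in siKDM6B33. Over all genes the gene-end shares were higher in both groups, at 13.5% and 13.4%, then 16.8% and 16.7%. The mean difference was 2.92 percentage points for the ZNF genes and 3.32 for all genes.

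The largest rises over bodies were at genes of 8.38 kb or less, against a median length of 25.5 kb. ZNF324 went from 2.42% and 0.036% of its body in siCtrl to 71.4% and 90.5% in siKDM6B33. ZNF579 went from 0 and 0 to 59.2% and 88.7%, and ZNF576 from 0 and 18% to 72.5% in both. The 2 genes lower over the body were ZNF444, with 22% and 24.9% in siCtrl and 12% and 12.7% in siKDM6B33, and ZNF536, with 13.2% and 12.2%, then 11.3% and 10.8%.

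**Figure D5:**
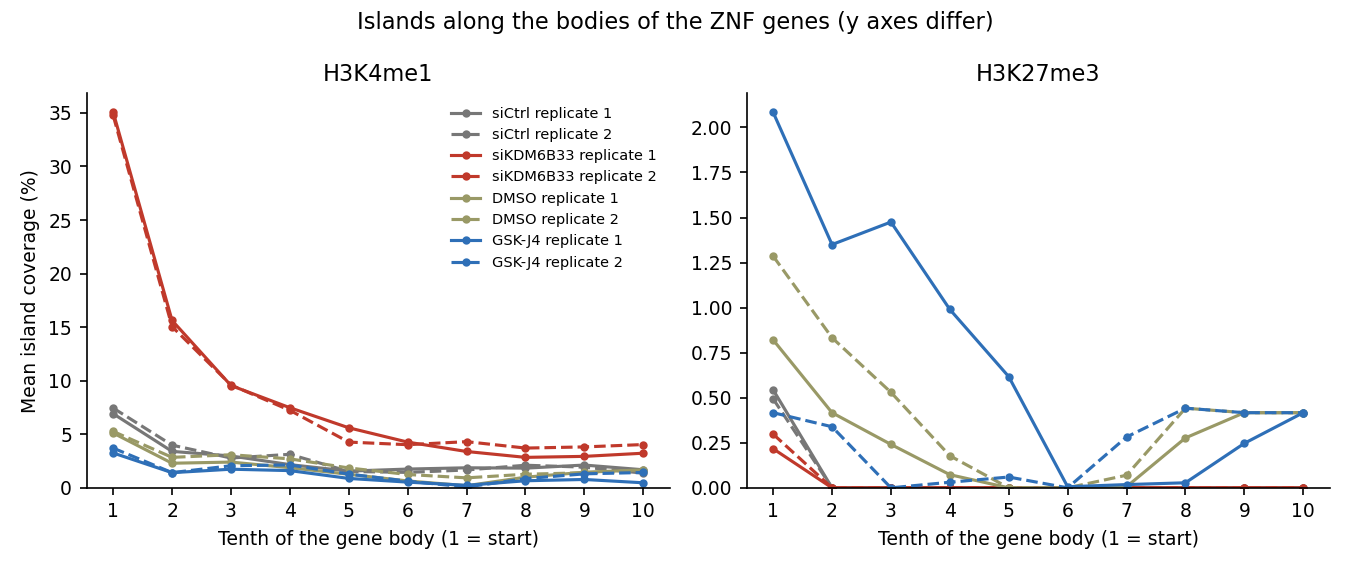
Mean percent of each of 10 equal parts of the gene body covered by islands, over the 240 ZNF genes, for H3K4me1 and H3K27me3 (the vertical axes differ). Each line is 1 library. The siKDM6B33 lines for H3K4me1 start at 35.1% and 34.8% in the front part and fall along the body, and no H3K27me3 value exceeds 2.08%.

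The narrow peak lists gave a fuller picture of the same starts. A narrow H3K4me1 peak was centred in the start window at 93 (38.8%) and 81 (33.8%) of the ZNF genes in siCtrl and at 200 (83.3%) and 197 (82.1%) in siKDM6B33. Over all genes the shares were 44.5% and 44%, then 62.6% and 62.4%, so in the lists as deposited the ZNF genes stood below all genes in siCtrl and above them in siKDM6B33. With the 20000 strongest peaks of each list, the ZNF shares were 5.83% in both siCtrl libraries and 28.75% and 32.5% in siKDM6B33, a difference of 24.8 percentage points. The shares over all genes were then 7.88% and 7.83%, and 28.76% and 28.5%, so the ZNF genes stood above them in 1 of the 2 siKDM6B33 libraries. A peak was present in both siKDM6B33 and neither siCtrl library at 81 genes (33.8%, against 11.2% of all genes) and in the opposite pattern at 1 (against 0.675%). All 4 libraries had a peak at 59 genes (24.6%, against 33.8% of all genes) and none had at 29 (12.1%, against 32.1%). ZNF genes of other chromosomes had 47.0% and 51.3% in siCtrl and 77.1% and 78.4% in siKDM6B33, with 15.7% in the pattern of gain. Of the 93 genes with no island, 46 (49.5%, against 12.98% of such genes in the genome) had a narrow peak in both siKDM6B33 libraries and 2 (2.15%, against 3.75%) in both siCtrl libraries. Of the 101 gained genes, 34 (33.7%, against 46.4% of gained genes in the genome) already had one in both siCtrl libraries. The strongest peak at a ZNF start ranked low among its library's peaks in siCtrl, at a median percentile of 23.9 and 44.1, and high in siKDM6B33, at 81.4 and 80.9. Over all genes those medians were 57.5 and 58.0, then 84.8 and 84.1.

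GSK-J4 gave no such rise of H3K4me1. A start island was present at 7.5% and 7.92% of the ZNF genes in DMSO and at 4.17% and 5.42% in GSK-J4, a difference of -2.92 percentage points, and the groups did not overlap. Start coverage was higher at 0 ZNF genes by the non-overlap rule, against 1.38% of all genes, and lower at 6 (2.5%), against 4.37%. With any 1 of the 4 libraries left out, 1 to 4 were higher and 9 to 10 lower, but the shares over all genes were not computed for this looser rule. Across all protein-coding genes the share of starts with an island fell as well, from 23.2% and 21.1% to 17.8% and 18.6%. A narrow peak was centred in 26.2% and 23.8% of ZNF start windows in DMSO and in 18.8% and 23.8% in GSK-J4, so those groups touched.

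The 6 genes with lower start coverage after GSK-J4 were ZNF358, ZNF524, ZNF526, ZNF581, ZNF784 and ZNF865, of which ZNF358 is named here although the naming rule took the other 5. ZNF865 went from 49.4% and 99.4% in DMSO to 0 and 0, and ZNF526 from 59.97% in both to 0 and 0. ZNF524 went from 100% and 87.3% to 0 and 37.3%, and ZNF581 from 100% in both to 0 and 90.7%. ZNF784 went from 50.0% and 63.4% to 0 and 30.0%. At equal covered length ZNF358, ZNF526 and ZNF784 were no longer apart between the groups, ZNF491, ZNF575, ZNF628 and ZNF653 came to be lower, and the count was 7 (2.92%, against 4.41% of all genes). Of the 6, 4 lie in the cluster from ZNF628 to ZNF835, where 43.8% and 50.0% of starts had an island in DMSO and 12.5% and 37.5% in GSK-J4. The 2 GSK-J4 libraries disagreed at ZNF581 and at ZNF444, which had 47.2% in both DMSO libraries and 0 and 100% in GSK-J4.

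Mean body coverage by H3K4me1 was 1.79% and 2.22% in DMSO and 1.16% and 1.49% in GSK-J4. It was higher at 3 ZNF genes (ZNF536, ZNF627 and ZNF787), against 8.96% of all genes, and lower at 8, against 6.55%. ZNF524 fell most, from 51.7% and 32.5% of its body to 0 and 0.417%. ZNF787 went from 27.3% and 27.9% to 35.6% and 30.8%, and ZNF536 from 10.0% and 7.33% to 11.6% and 12.2%.

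H3K27me3 islands were nearly absent from these genes in every group. A start island was present at 0 to 6 of the 240 genes in a library, and at 9 genes in any of the 8 libraries, whereas 14.2% to 21.0% of all protein-coding genes had one. In 225 of the 240 genes no H3K27me3 island touched the body in any library. In the knockdown experiment the share of the 240 starts with an island was 1.25% and 0.833% in siCtrl and the same pair of values in siKDM6B33. Start coverage was higher at 1 ZNF gene, against 2.62% of all genes, and lower at 1, against 1.01%. Body coverage was higher at 1 (8.24% of all genes) and lower at 1 (2.37%).

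The gene with higher H3K27me3 after knockdown was ZNF525, with 0 and 0 in siCtrl and 72.1% and 89.96% of the start window in siKDM6B33. The H3K27me3 lists covered 53.7 and 54.2 Mb in siCtrl and 89.8 and 87.3 Mb in siKDM6B33, and at an equal 53.7 Mb ZNF525 was at 0 in all 4. H3K4me1 at the same start went from 0 and 0 to 80.0% and 87.9%. The gene with lower H3K27me3 was ZNF784, with 30.0% in both siCtrl libraries and 0 in both siKDM6B33 libraries, where H3K4me1 went from 0 and 0 to 50.0% and 59.97%. ZNF558 was covered by H3K27me3 in all 4 control libraries, with 59.97% and 50.0% in siCtrl and 89.0% and 89.0% in DMSO, and it was the lone gene of the 240 with that property. It had 50.0% and 69.0% in siKDM6B33, which overlapped siCtrl, and 50.0% and 0 in GSK-J4, which lay below DMSO. At ZNF558 H3K4me1 was at 0 and 0 in siCtrl and at 91.0% and 69.97% in siKDM6B33, beside H3K27me3 of the same window.

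With GSK-J4, H3K27me3 start coverage was higher at 0 ZNF genes and lower at 1, against 1.02% of all genes in each direction. Body coverage was higher at 1 ZNF gene (4.7% of all genes) and lower at 1 (3.2%). The higher body was that of ZNF536, with 2.46% and 2.86% in DMSO and 5.81% and 3.27% in GSK-J4, and the lower was that of ZNF558. A start island was present at 0.833% and 1.25% of the ZNF genes in DMSO and at 2.5% and 0% in GSK-J4. The difference was -1.04 percentage points without the first GSK-J4 library, the one that stood apart, and 1.46 without the second. That first library alone held H3K27me3 islands at the starts of ZNF414, ZNF444 and ZNF446.

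Weak narrow peaks of H3K27me3 lay at more of the starts, and mostly where H3K4me1 peaks lay. A narrow H3K27me3 peak was centred in 14.2% and 11.7% of the ZNF start windows in siCtrl, 16.2% and 15% in siKDM6B33, 11.7% and 16.2% in DMSO and 20.4% and 10.8% in GSK-J4. Over all genes the shares were 21.0% and 20.9%, 24.8% and 25.3%, 21.5% and 23.3%, and 31.1% and 23.7%, in the same order. The knockdown difference of the ZNF genes was 2.71 percentage points, but it was -0.208 for peaks with a −log10 q of at least 5, so no direction is given. Of the starts with such a peak in the first siCtrl library, 24 of 34 (70.6%) also held an H3K4me1 peak of the library with the same number, against 33.5% of the 206 starts without. In the second the shares were 75% and 28.3%. In DMSO they were 71.4% and 20.3%, then 59.0% and 16.9%, and in siKDM6B33 they were 97.4% and 80.6%, then 94.4% and 79.9%. The strongest H3K27me3 peak at a ZNF start ranked at a median percentile of 40.6 to 52.5 of its library, against 61.4 to 69.3 over all genes. Replicate numbers tie no culture of one mark to the other in the labels, so the overlap is between libraries and not within cells. The overlap of the 2 marks was not computed over all genes, so it is not given as a trait of the ZNF genes.

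The partners of KRAB zinc finger proteins were read in the same way. Of 14 genes fixed as KRAB co-repressors and their associates, 8 had higher H3K4me1 start coverage after knockdown and 0 lower, beside the 38.4% and 1.23% of all genes. In the other 3 comparisons 0 were higher or lower. There 2.62% of all genes were higher and 1.01% lower for H3K27me3 with knockdown. The shares were 1.38% and 4.37% for H3K4me1 with GSK-J4, and 1.02% in each direction for H3K27me3 with GSK-J4. TRIM28, the KRAB co-repressor itself, went from 0 and 0 in siCtrl to 71.5% and 81.5% in siKDM6B33, and SETDB1 from 0 and 0 to 50.0% in both. MPHOSPH8, of the HUSH complex, went from 0 to 99.9% in both, PPHLN1 from 0 to 100% in both and MORC2 from 0 to 100% and 98.0%. DNMT1, the maintenance DNA methyltransferase, went from 0 to 68.6% and 98.6%, and CBX1 from 0 to 78% and 68.0%. CBX3 had islands in siCtrl already, at 61.8% and 71.8%, and 100% in both siKDM6B33 libraries. TASOR, ATRX and DAXX were at 0 in all 8 H3K4me1 libraries.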

How the data were processed

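CUT&Tag of H3K4me1 and H3K27me3 in BE2C cells gave 16 libraries in 8 groups, taken from the sample titles. The authors aligned reads to hg19 with BWA 0.7.12, marked duplicates with Picard 1.65, kept properly paired, uniquely mapped fragments (SAMtools 1.3.1) and called regions in each library separately, without pooling replicates. The deposited island lists (SICER 1.1, 200-bp windows) hold a score that grows with depth and width. The deposited narrow peak lists (MACS2, version 2.1.1 in the submitters' processing notes) hold a fold over background (a ratio) and −log10 p and −log10 q, used here to rank peaks within a list. The authors' spike-in scaling and voom test need reads per region and were not used here, so list length carries depth.

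Genes came from GENCODE 44 mapped to GRCh37, with sequence from the same build. No list coordinate lay past the end of a chromosome. Coverage, motif letters, CpG ratios and unique 50-base words were computed in Python 3.11.15 with NumPy 2.4.6 and pandas 2.3.3, and plots with matplotlib 3.10.9. Depth was solved from the fold and −log10 p of the 20 commonest peak values of each list. Scripts were tested on simulated islands. The ZNF genes, gene lists and motifs were chosen with earlier results of these data known. Genes named were 20 fixed symbols, in each comparison the 5 largest start and 3 largest body differences in each direction among non-overlapping groups, up to 10 genes with H3K27me3 in all control libraries, and the ends of each large cluster. A split by KRAB domain or finger number was not run, since no protein sequences were used here. One marker gene of the cell type check is not reported here.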

Additional observations from a re-analysis of the deposited data

Results flagged for a closer look

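H3K4me1 moved in opposite directions at the ZNF genes in the knockdown and compound experiments, with every treated library on one side of both its controls. The share of starts with an island changed by 46.2 percentage points with siKDM6B33 and by -2.92 with GSK-J4. Mean body coverage changed by 6.36 percentage points with siKDM6B33 and by -0.68 with GSK-J4. The start share moved the same ways over all protein-coding genes, by 33.0 and -3.92, over the other genes of chromosome 19, by 20.3 and -7.56, and over ZNF genes of other chromosomes, by 44.7 and -2.97. Body coverage over all genes changed by 6.2 with siKDM6B33 and by 0.167 with GSK-J4, where the groups overlapped. By narrow peaks the GSK-J4 groups of the ZNF genes were not apart. The difference between the experiments was not tested. The experiments had their own controls, and their H3K4me1 libraries differed in depth (a genome background of 0.0849 to 0.107 against 0.0483 to 0.0569 tags over a base). Its part in the difference was not tested.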

How the results depend on the processing

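Over 156 alternatives to 20 results, 117 kept the value within 1 SD of the replicates or the count within 1.5 times, and 39 did not. Among differences whose groups did not overlap, the sign turned for the H3K27me3 knockdown difference in narrow peak share, 2.71 as listed, -0.208 with a −log10 q of at least 5 and -3.12 with the 20000 strongest peaks of each list, a setting chosen after seeing the data. The H3K27me3 GSK-J4 differences, whose groups overlapped, have no stable sign. They were 0.208 in start share, 0.14 in body coverage and 1.67 in narrow peak share, and -1.04, -0.102 and -3.12 without GSK-J4 replicate 1. The H3K4me1 knockdown differences in share and coverage kept their sign in every alternative run. At equal covered length they were 28.8 points of start share, 5.16 of body coverage, 69 genes higher and 0 lower, and those for H3K27me3 were -0.625, -0.047 and 0 genes higher. For GSK-J4 and H3K4me1, equal length gave -4.38 and -1.05. Asking for 50% of the window gave 43.3 for H3K4me1 and 0.625 for H3K27me3 with knockdown. At the gene 5′ end the H3K4me1 knockdown difference was 43.96 for islands and 42.5 for narrow peaks, 2 genes had lower H3K27me3 after knockdown and 1 had higher H3K4me1 after GSK-J4. The H3K4me1 narrow peak difference was 59.6 at −log10 q of at least 5 and 24.8 with the 20000 strongest. Bodies without their first 1 kb gave 4.68 and -0.001 for H3K4me1 and H3K27me3 with knockdown, and lettered symbols gave 6.44 for H3K4me1.

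The labels do not say that replicate numbers pair the samples, and 2 pairs cannot show it. With a replicate block, 110 genes were higher and 2 lower in H3K4me1 after knockdown, and 1 was higher and 7 lower after GSK-J4. Leaving out each library in turn, the counts ranged from 112 to 122 genes higher and 1 to 2 lower (H3K4me1, knockdown; 2 except without siCtrl replicate 2), 1 to 2 higher (H3K27me3, knockdown; 2 without either siKDM6B33 library), 1 to 4 higher and 9 to 10 lower (H3K4me1, GSK-J4; 4 and 9 without GSK-J4 replicate 1) and 0 to 4 higher and 1 to 2 lower (H3K27me3, GSK-J4; 4 higher without GSK-J4 replicate 2, and 2 lower without replicate 1 of either group). A count cannot fall when a library is left out because fewer libraries must stay apart. Neither these counts nor those with the block were computed over all genes. The lists hold no reads per region, so a start without an island is one not called at this depth and not one without the mark.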
